A study of Mus musculus with 6 samples.

Results

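The genes described here mark the thin cell layers that line the kidney from outside and from inside: the mesothelium, a flat epithelium on the organ's surface, and the urothelium, the stratified epithelium of the renal pelvis and the lower urinary tract. They were followed in whole left kidneys of male mice of the C57BL/6J strain, aged 8 weeks and fasted for 20 h. The wild-type group (WT, replicates 2, 3 and 4) was compared with the Selenbp1-KO group (replicates 1, 2 and 3), which carries a knockout of the gene for selenium-binding protein 1. How the knockout allele was made is not described here. Each sample was hybridised to 1 one-colour Agilent array with Cy3-labelled cRNA, and the question was which of these genes differ between the genotypes. Per the study's methods, each group was made of 3 mice.

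The members were 10 genes chosen by name: Msln, Muc16, Upk3b, Lrrn4, Gpm6a and Bnc1 for the mesothelium, and Upk1a, Upk1b, Upk2 and Krt19 for the urothelium and ductal epithelium. Of the 10, 9 had a probe under that gene name, with 10 probes in all, out of 37325 genes on the array. Muc16 had no probe of that name. A level below is the log2 signal of a probe relative to the 75th percentile of its own array, a difference is the mean of Selenbp1-KO minus the mean of WT on that log2 scale, and levels of different probes cannot be set against each other.

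Urothelial umbrella cells cover their surface with rigid plaques built from uroplakins. The tetraspanins Upk1a and Upk1b pair with Upk2 and Upk3a, respectively, before they leave the endoplasmic reticulum. Upk3b, despite its name, is best known from the mesothelium, where it is found with mesothelin (Msln), a surface protein that binds the large mucin Muc16. In a bulk sample of kidney, fewer cells of a type and less RNA per cell cannot be told apart.

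The last 30 bases of the probes on which the main results rest are shown because each gene was read through this stretch of its transcript. Capitals mark the hexamer AATAAA, the usual polyadenylation signal, where a probe contains it. Coordinates of the whole 60-base probes are in mm9 and all 4 lie on the minus strand.
Upk1a (chr7:31388111-31388170): gttggctggacacccAATAAAtactggctg
Upk1b (chr16:38773592-38773651): tcacacttttggatgcttttagtctccagt
Upk2 (chr9:44260822-44260881): ctcttaactgtacttaattctcacAATAAA
Msln (chr17:25885569-25885628): ggactcttgaactcAATAAAcagtggcata
The probes of Upk1a, Upk2 and Msln contain this hexamer, and that of Upk1b does not within its last 30 bases. Their annotated starts in the transcripts were base 1248 for Upk1a, 1414 for Upk1b, 790 for Upk2 and 2044 for Msln.

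Selenbp1 itself was lower in every Selenbp1-KO array, with levels of 4.13, 3.98 and 4.10 against 7.07, 7.02 and 7.02 in WT (difference −2.96, SE 0.10, limma adjusted p = 0.0021). Whether its probe lies in the deleted part of the gene is not given in the sources used here. Across the 6 arrays, 51.8% to 55.5% of spots were well above background and the 75th percentile lay between 477 and 750.6 units. The 10 proximal tubule genes tested as a check of the tissue were all well above background on all 6 arrays, and none was called. Over the array, 4479 of 56097 probes tested had an unadjusted p under 0.05 in limma, 3632 higher and 847 lower in Selenbp1-KO, and 2 had an adjusted p under 0.05. Without WT replicate 4, 17585 probes had an unadjusted and 12522 an adjusted p under 0.05. With quantile normalization the split was 2570 higher and 2116 lower, and the median difference of all probes moved from 0.11 to 0.0012.

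Of the 9 member genes, 1 passed the unadjusted criterion (Lrrn4, higher in Selenbp1-KO) and none passed after Benjamini-Hochberg adjustment over all probes, where the lowest adjusted p was 0.279. Without WT replicate 4 the adjusted p of Lrrn4 and of Bnc1 was 0.049. In that fit 12522 of 56097 probes passed adjustment, so the value does not single out these genes. With all arrays, 6.87% of the 37028 genes tested were called higher and 1.13% lower. The median difference of the members was 0.48, against 0.13 over all genes tested, and 7 of the 9 lay above that median. Without Selenbp1-KO replicate 2 the median of the members was 0.11. The plaque uroplakins and Krt19 moved together from array to array, and Upk3b followed them less closely. Msln was close to the criterion, Gpm6a was nearly flat, and Lrrn4 and Bnc1 were well above background on no array.

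Upk1a, a tetraspanin of the urothelial plaque, stood at 2.93, 2.90 and 2.61 on the WT arrays and at 3.23, 4.19 and 2.68 on the Selenbp1-KO arrays, here and below in the order of the replicate numbers. Selenbp1-KO replicate 2 stood highest, and Selenbp1-KO replicate 3 lay within the WT range, so the groups overlapped. The difference was 0.55 (SE 0.38, 95% interval −0.38 to 1.48, n = 3 per group, limma unadjusted p = 0.197, adjusted p = 0.475).

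Upk1b, the tetraspanin partner of Upk3a, was read by 2 probes. The brighter gave 0.69, 0.77 and 0.33 in WT and 1.02, 1.94 and 0.27 in Selenbp1-KO. Here Selenbp1-KO replicate 3 was the lowest of all 6 arrays and replicate 2 the highest. The difference was 0.48 (SE 0.42, 95% interval −0.54 to 1.495, limma unadjusted p = 0.293). The other probe, which lies nearer the start of the transcript, gave −0.66, −0.63 and −1.12 in WT and −0.41, 0.64 and −1.005 in Selenbp1-KO. Its difference was 0.55 (SE 0.42), and its order of arrays was nearly that of the brighter probe.

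Upk2, a single-pass plaque protein that pairs with Upk1a, had levels of 0.42, 0.61 and 0.17 in WT and of 0.84, 2.09 and 0.18 in Selenbp1-KO. The spread within Selenbp1-KO (SD 0.97) was larger than the difference between genotypes (0.64, SE 0.47, limma unadjusted p = 0.228). Krt19, a simple-epithelium keratin of ducts, urothelium and mesothelium, gave 1.18, 1.18 and 0.98 in WT and 1.48, 2.01 and 0.84 in Selenbp1-KO. Selenbp1-KO replicate 3 again lay below every WT array, and the difference was 0.33 (SE 0.29, limma unadjusted p = 0.301).

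For all 4 of these genes the WT arrays lay close together and the Selenbp1-KO arrays far apart. The SD was 0.17, 0.23, 0.22 and 0.11 in WT for Upk1a, Upk1b, Upk2 and Krt19, and 0.77, 0.83, 0.97 and 0.58 in Selenbp1-KO. With 3 arrays per group the exact two-sided permutation test of a single gene cannot give a p below 0.10. The barcode in the scanner files holds a field that was read here as the side of the slide. It was 2 for WT replicate 4 and all Selenbp1-KO arrays, and 1 for the other WT arrays. With slide side as a block, which sets all Selenbp1-KO arrays against WT replicate 4 only, the differences were 0.75 for Upk1a, 0.74 for Upk1b, 0.86 for Upk2 and 0.46 for Krt19, and none passed the criterion.

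**Figure D1:**
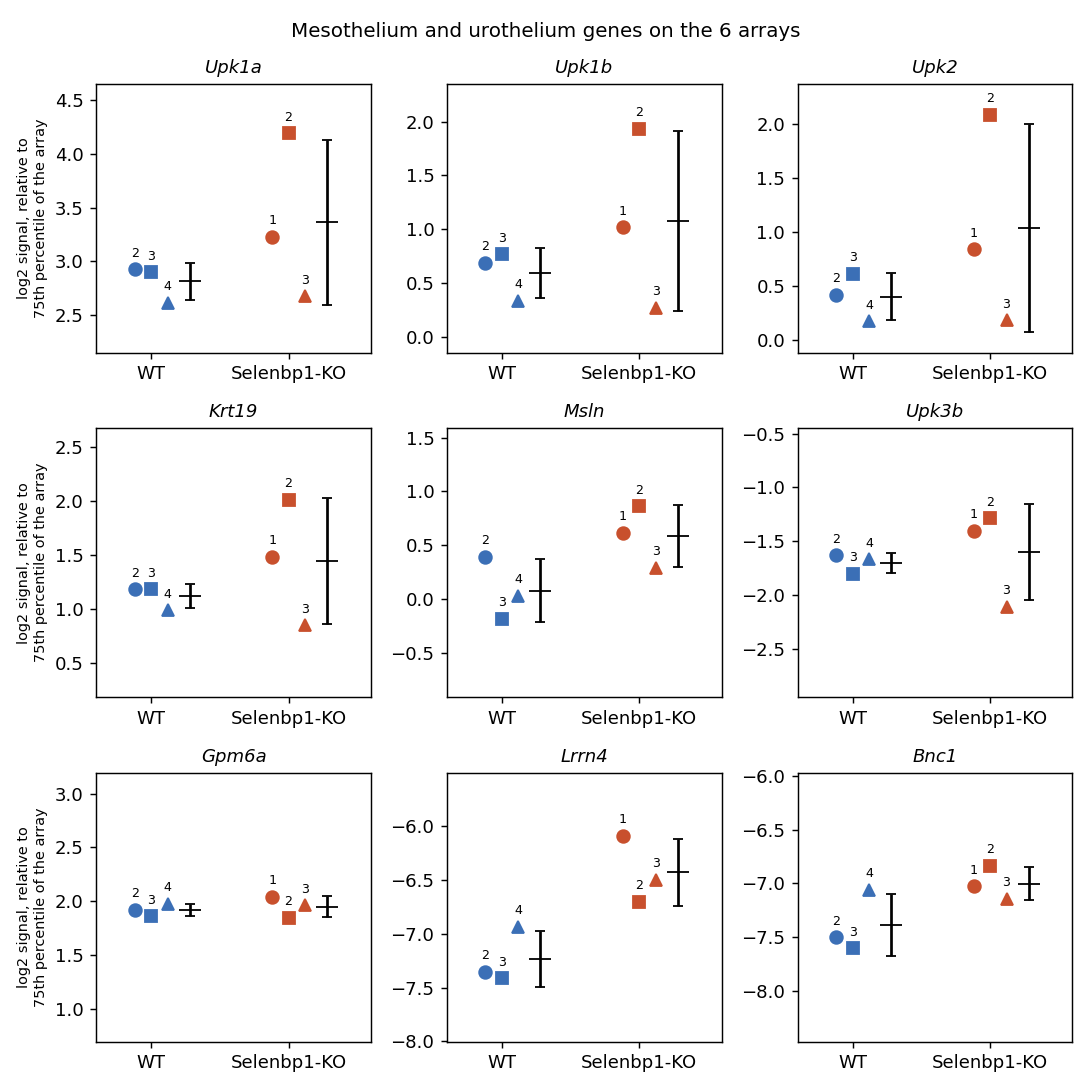
Levels of the 9 member genes on the 6 arrays, as log2 signal relative to the 75th percentile of the array, with WT in blue and Selenbp1-KO in orange. Numbers beside points are replicates, and bars beside them give the mean and SD of 3 arrays. Every panel spans the same number of log2 units. Upk1a, Upk1b, Upk2, Krt19, Msln, Upk3b and Bnc1 were highest in Selenbp1-KO replicate 2, and only Lrrn4 did not overlap between the groups.

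Msln, the mesothelial surface protein, had levels of 0.39, −0.18 and 0.03 in WT and of 0.62, 0.86 and 0.29 in Selenbp1-KO. WT replicate 2 lay above Selenbp1-KO replicate 3, so the groups overlapped by this 1 pair. The difference was 0.51 (SE 0.21, 95% interval −0.0062 to 1.02), with a limma unadjusted p of 0.052 and an adjusted p of 0.279. Its p was under 0.05 in 8 of 19 alternative settings and the sign of its difference was the same in 19. With slide side as a block the difference was 0.56 (limma unadjusted p = 0.143).

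Upk3b, a uroplakin of mesothelial cells, gave −1.63, −1.80 and −1.67 in WT and −1.40, −1.29 and −2.11 in Selenbp1-KO. Selenbp1-KO held both the highest array (replicate 2) and the lowest (replicate 3), with an SD of 0.44 against 0.091 in WT. The difference was 0.10 (SE 0.23, 95% interval −0.46 to 0.66), and 0.35 without Selenbp1-KO replicate 3 (limma unadjusted p = 0.044). Gpm6a, a membrane glycoprotein known from neurons and present in mesothelium, gave 1.92, 1.86 and 1.98 in WT and 2.04, 1.85 and 1.96 in Selenbp1-KO. Its whole range over the 6 arrays was 0.20, the narrowest of the members, and its difference was 0.033 (95% interval −0.22 to 0.29).

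Lrrn4, a leucine-rich repeat protein, and Bnc1, a zinc finger transcription factor, were well above background on none of the 6 arrays. Lrrn4 read −7.35, −7.42 and −6.94 in WT and −6.09, −6.70 and −6.50 in Selenbp1-KO, without overlap. Over all genes, 10.2% had every Selenbp1-KO array above every WT array and 3.87% had every one below. The limma unadjusted p of Lrrn4 was 0.0085, and the signals before scaling were 4.24 to 8.31 units, so no fold is given. With slide side as a block its unadjusted p was 0.107.

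Bnc1 read −7.50, −7.60 and −7.06 in WT and −7.03, −6.84 and −7.14 in Selenbp1-KO, with signals of 3.86 to 4.34 units on all 6 arrays before scaling. When only detection above background counted, Bnc1 was no longer among the genes tested. Its scaled difference of 0.39 (limma unadjusted p = 0.073) was close to those of other probes not well above background, such as Calb2 (0.38) and Cyp11b1 (0.38), and was 0.0084 in the value table of the authors.

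A probe outside the gene names is described as mucin 16, the partner of mesothelin. It was not well above background on any array, with signals of 3.68, 3.60 and 3.62 units in WT and of 13.1, 3.93 and 13.3 units in Selenbp1-KO. Selenbp1-KO replicates 1 and 3 stood above the other 4 arrays, which all lay near 4 units. Its limma unadjusted p was 0.011, and 0.116 with slide side as a block.

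The likeness of the members across arrays was described by Pearson's r over the 6 arrays, which were all scaled in the same way. Upk1a, Upk1b and Upk2 had r of 0.99 with each other, and both Upk1b probes followed the same course (r = 0.99). Krt19 had r of 0.97 to 0.99 with them. Upk3b had r of 0.87 with Krt19 and of 0.76 to 0.81 with the 3 plaque uroplakins. Msln had r of 0.72 to 0.79 with the 3 plaque uroplakins and 0.66 with Upk3b, while Gpm6a had r of −0.49 to −0.44 with the plaque uroplakins and their probes. The mean centred profile of the 3 plaque uroplakins stood at −0.20, −0.12 and −0.51 on the WT arrays, and on the Selenbp1-KO arrays at 0.15, 1.19 and −0.51. WT replicate 4 and Selenbp1-KO replicate 3 were thus the lowest arrays, 1 from each genotype.

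Among 1520 other genes well above background and with a wide enough range, those most like this profile were Sprr1a (r = 0.999), Grhl3 (0.997), Krt15 (0.996), Mgst2 (0.996), Gjb6 (0.994) and Bmp3 (0.994). Sprr1a, a small proline-rich protein of stratified epithelia, read 2.18, 2.32 and 1.83 in WT and 2.53, 3.71 and 1.90 in Selenbp1-KO. Krt15, a keratin of basal cells, read −0.14, −0.01 and −0.41 in WT and 0.22, 0.97 and −0.31 in Selenbp1-KO. Both were highest in Selenbp1-KO replicate 2. For the mean profile of Msln, Upk3b and Gpm6a, whose range was only 0.52, the most alike of 13007 genes included Mdfi (0.983), Scd4 (0.973) and Ext2 (0.971), and the 3 others were a predicted locus, a predicted gene and a probe named by its position.

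**Figure D2:**
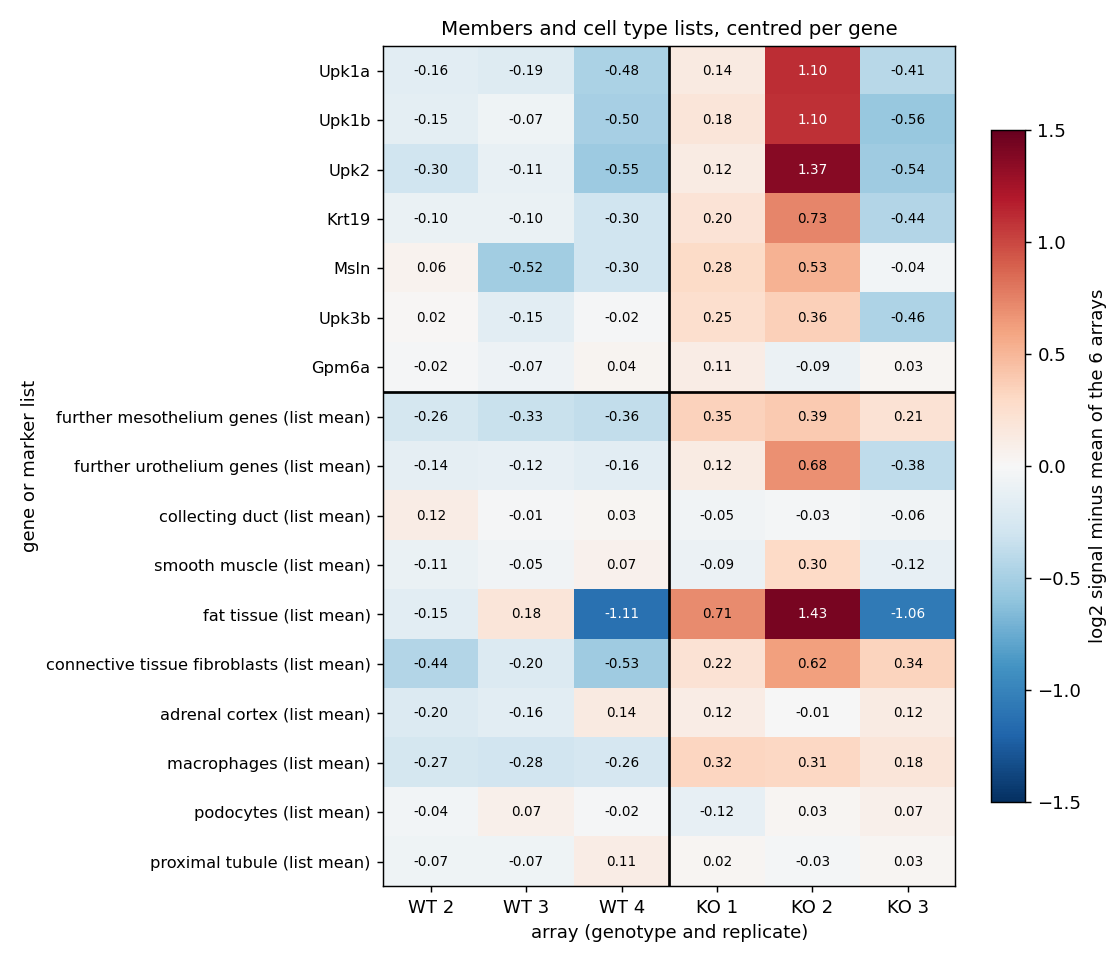
Log2 signal of 7 member genes and the mean of each marker list on the 6 arrays, each gene centred on its mean over the arrays (colour and printed number), with WT left and Selenbp1-KO right of the vertical line. Genes well above background on no array are left out. The plaque uroplakins, Krt19, Msln and Upk3b were highest in Selenbp1-KO replicate 2. So were the lists of further urothelium, further mesothelium, fat tissue, connective tissue fibroblast and smooth muscle genes. Gpm6a and the other lists were highest in other arrays.

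Of 15 further urothelium genes, 1 was called higher and none lower, with a median difference of 0.21, beside the 6.87% of all genes called higher. The called gene was Cldn4, a tight junction claudin, at −1.81, −2.09 and −1.55 in WT and −1.24, −0.79 and −1.55 in Selenbp1-KO (difference 0.62, SE 0.24, limma unadjusted p = 0.038, adjusted p = 0.279). WT replicate 4 and Selenbp1-KO replicate 3 were nearly tied, and its p was under 0.05 in 13 of 19 alternative settings. With slide side as a block its difference was 0.36 (limma unadjusted p = 0.313). Its p was also above 0.05 with the methods' t-test and without WT replicate 2, WT replicate 3, Selenbp1-KO replicate 1 or Selenbp1-KO replicate 2. Upk3a, the plaque uroplakin that pairs with Upk1b, read 1.70, 1.92 and 1.70 in WT and 2.38, 3.11 and 1.74 in Selenbp1-KO (difference 0.64, limma unadjusted p = 0.110). The basal keratin Krt5 read −0.17, 0.18 and −0.33 in WT and 0.30, 1.22 and −0.66 in Selenbp1-KO. The umbrella cell keratin Krt20 read −1.59, −1.08 and −1.82 in WT and −1.06, −0.24 and −2.28 in Selenbp1-KO. Krt5 and Krt20 had the same highest array as the plaque uroplakins and the same lowest array as Krt19. Other genes of the list did not: the basal cell factor Trp63 was highest in WT replicate 4 (2.41, against 2.17 in Selenbp1-KO replicate 2), and Gata3, a urothelial transcription factor, in WT replicate 2 (3.21, against 3.13). The mean of the list had r of 0.978 with the plaque profile.

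Without Selenbp1-KO replicate 2 the median of the further urothelium genes was −0.022, with 0 called higher and 2 lower (Gata3, and Krt13, which was well above background on no array), and the differences of Upk1a, Upk1b, Upk2 and Krt19 were 0.14, 0.049, 0.11 and 0.048. Over all probes, 1645 were called higher and 1163 lower in that fit. Without Selenbp1-KO replicate 3, 6 of the further urothelium genes were called higher (median 0.36). The differences of Upk1a, Upk1b, Upk2 and Krt19 were then 0.90, 0.88, 1.06 and 0.63, and the unadjusted p of each was under 0.05. In this fit 3744 of 56097 probes were called, 3019 of them higher, and 0 passed after adjustment. The urothelial differences therefore changed size, and crossed the criterion, with 1 array.

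Of 12 further mesothelium genes, 3 were called higher and none lower, with a median difference of 0.20. Over all genes tested, 6.87% were called higher and the median difference was 0.13. Slpi, a secreted protease inhibitor that other epithelia and myeloid cells make as well, read −1.66, −3.02 and −3.30 in WT and 1.06, −0.04 and 0.62 in Selenbp1-KO (difference 3.21, SE 0.50, limma unadjusted p = 0.00063, adjusted p = 0.279). Rspo1, a secreted enhancer of Wnt signalling, read −3.09, −2.55 and −3.46 in WT and −1.36, −1.62 and −1.25 in Selenbp1-KO (difference 1.62, SE 0.25, limma unadjusted p = 0.00061, adjusted p = 0.279). Nkain4, a membrane protein that interacts with the sodium pump, read −3.97, −3.57 and −3.64 in WT and −2.17, −2.38 and −2.51 in Selenbp1-KO (difference 1.38, SE 0.16, limma unadjusted p = 0.00011, adjusted p = 0.279). For each of the 3, the lowest Selenbp1-KO level was higher than the highest WT level, as it was for 10.2% of all genes. Their unadjusted p stayed below 0.05 in each of 19 alternative settings. With the 3 probes of Slpi averaged its difference was 1.17. Without WT replicate 4 the adjusted p of each was 0.049, in the fit where 12522 of 56097 probes passed adjustment. With trend and robust moderation the adjusted p was 4.7e-05 for Nkain4, 0.00011 for Rspo1 and 0.26 for Slpi. In that setting 183 probes passed adjustment.

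The other 9 were not called. Wt1, a transcription factor of mesothelium that podocytes also express, read 0.67, 0.79 and 0.81 in WT and 0.57, 0.88 and 0.79 in Selenbp1-KO. Aldh1a2, which makes retinoic acid in mesothelium, had a difference of 0.27 (SE 0.15) and Pdpn, a mucin-like protein that podocytes also carry, 0.26 (SE 0.13). Calb2, the calcium-binding protein calretinin, was well above background on no array. Pdpn did not overlap between the groups, at 0.64, 0.63 and 0.62 in WT and 0.87, 1.09 and 0.70 in Selenbp1-KO. The mesothelial genes were thus not of 1 pattern. Of the further genes 3 were called, Msln came close to the criterion, and Wt1, Upk3b and Gpm6a had differences between −0.014 and 0.10. Lrrn4 and the mucin 16 probe also passed the unadjusted criterion without overlap, but were well above background on no array.

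**Figure D3:**
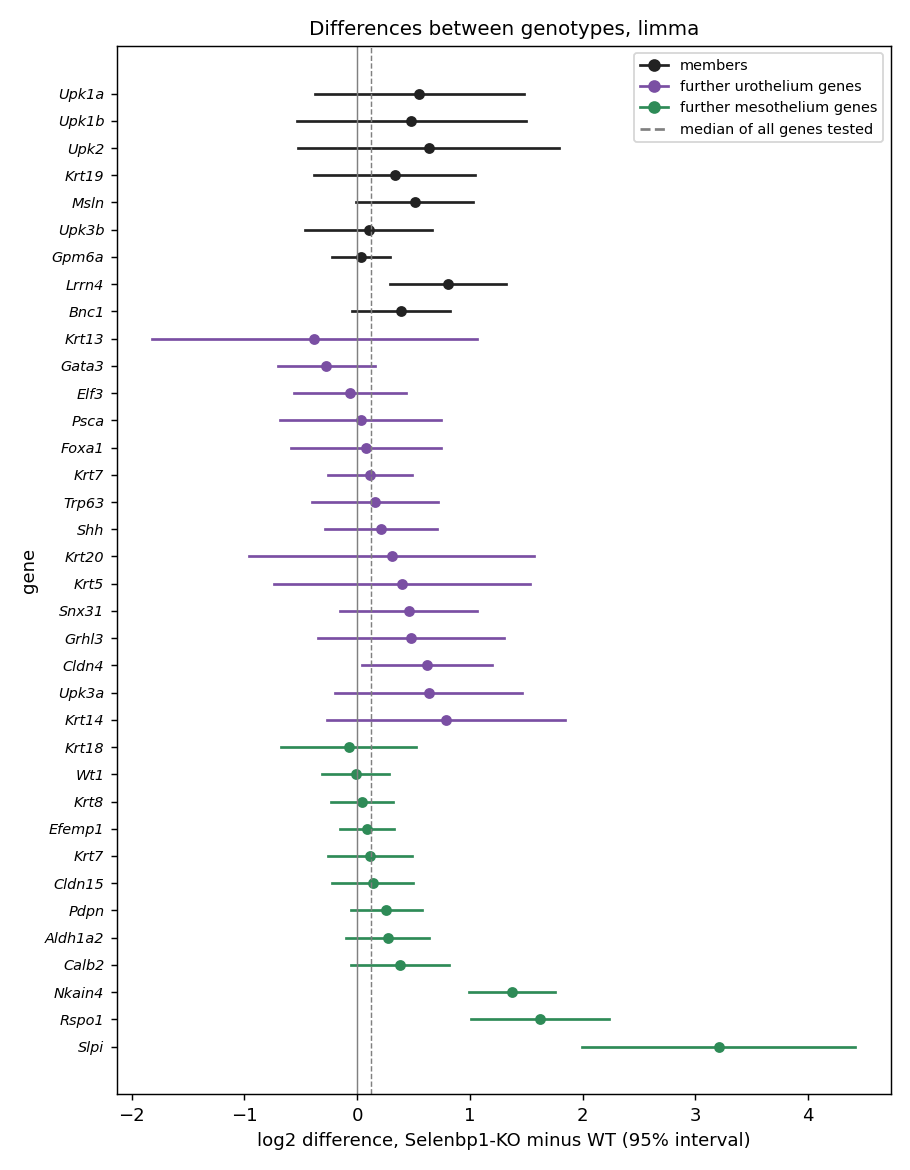
Differences between genotypes (points, log2, Selenbp1-KO minus WT) with 95% intervals from limma for the members, the further urothelium genes and the further mesothelium genes. The solid line is 0 and the dashed line the median of all genes tested, 0.13. Slpi, Rspo1 and Nkain4 stood farthest to the right, and the intervals of the plaque uroplakins and Krt19 included 0.

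Marker lists of other tissues that a dissected kidney can carry were read beside these genes. The 10 fat tissue genes, none of them called, moved with the plaque profile (r = 0.923 over the 6 arrays). Their summed signal, in units of the 75th percentile of the array, was 39.1, 61.5 and 18.4 in WT and 72.3, 150.9 and 27.4 in Selenbp1-KO, so that within each genotype the highest and the lowest array were the same as for Upk1b and Upk2. All 10 were well above background on all 6 arrays. The median difference of this list was 0.76, but leaving out Selenbp1-KO replicate 2 gave 0.23 and leaving out WT replicate 4 gave 0.37. Leaving out Selenbp1-KO replicate 3 gave 1.44, with 6 of the 10 called higher, beside 3019 of 56097 probes over the array. With slide side as a block it was 1.40, with 1 called (Retn). Of 8 smooth muscle genes none was called, and their summed signal of 12.4 to 15.2 in WT and 13.3 to 17.2 in Selenbp1-KO was also highest in Selenbp1-KO replicate 2. The part of such tissue in the urothelial values was not tested.

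The 10 connective tissue fibroblast genes followed the genotype more closely, with 7 called higher, none lower and a median difference of 0.78. For comparison, 6.87% of all genes tested were called higher and 1.13% lower, with a median difference of 0.13. Mfap5 (1.40), Pi16 (1.20), Dpt (1.08) and Lum (0.85), all matrix or surface genes of fibroblasts, had the largest differences. The summed signal of this list was 14.6 to 21.7 in WT and 28.4 to 37.1 in Selenbp1-KO. Of 10 macrophage genes, 7 were called higher and none lower (median difference 0.54), led by Cd163 (1.02), Lyz2 (0.74), Mrc1 (0.70) and C1qc (0.60), with sums of 15.7 to 19.3 in WT and 21.8 to 23.7 in Selenbp1-KO. With slide side as a block 4 macrophage genes were called (Cd68, Mrc1, Cd163 and Lyz2). Cd163 was not called with quantile normalization, the authors' value table or the methods' t-test, or without Selenbp1-KO replicate 2 or replicate 3. Both lists were higher in Selenbp1-KO, as were Slpi, Rspo1 and Nkain4. Within Selenbp1-KO the fibroblast list was highest in replicate 2, where Slpi and Rspo1 were lowest. The macrophage list and Nkain4 were both highest in replicate 1 and lowest in replicate 3. The part of these cells in the differences of Slpi, Rspo1 and Nkain4 was not tested.

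Of 10 collecting duct genes none was called higher and Elf5, an epithelial transcription factor, was called lower (difference −0.80, limma unadjusted p = 0.035). This call was lost with slide side as a block, quantile normalization, the authors' value table, the methods' t-test, and trend and robust moderation. It was also lost without WT replicate 2, WT replicate 4, Selenbp1-KO replicate 1 or Selenbp1-KO replicate 3. This list, the kidney epithelium next to the urothelium, had a median difference of 0.017 and r of −0.23 with the plaque profile. Of 7 podocyte genes 1 was called higher (Synpo, 0.29). The call of Synpo was lost with scaling by the median and with slide side or replicate number as a block. It was also lost without WT replicate 2 or without any 1 of the Selenbp1-KO arrays. Of 8 adrenal cortex genes none was called, with 4 of these 8 well above background on no array. Over all genes tested, 6.87% were called higher and 1.13% lower.

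**Figure D4:**
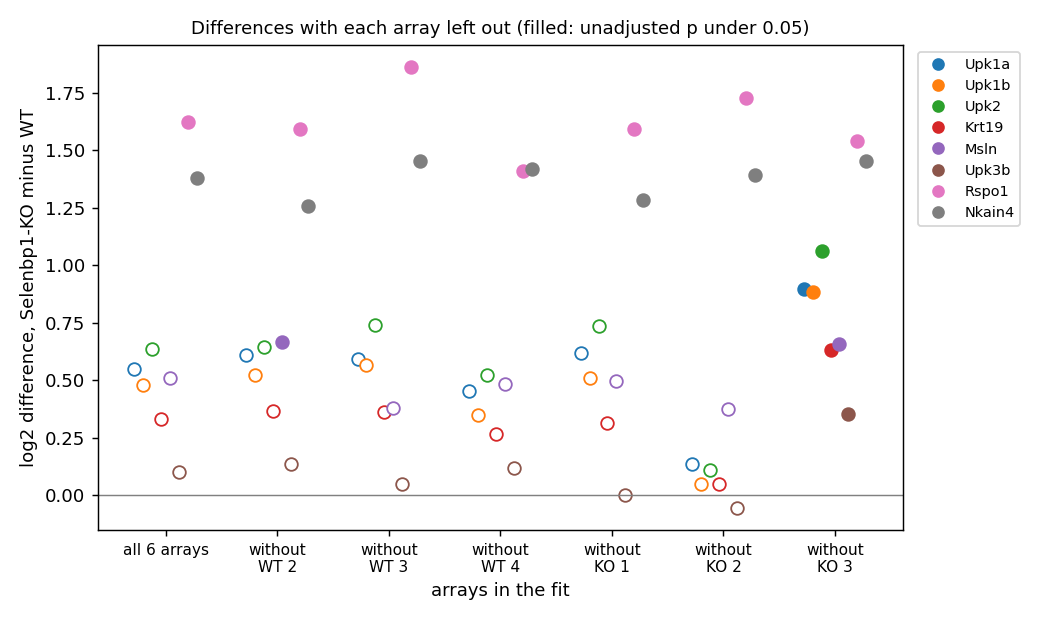
Differences (log2, Selenbp1-KO minus WT) of 6 members and of Rspo1 and Nkain4 with all 6 arrays and with each array left out, filled where the limma unadjusted p was under 0.05. The plaque uroplakins and Krt19 lay near 0 without Selenbp1-KO replicate 2 and were filled without Selenbp1-KO replicate 3, while Rspo1 and Nkain4 were filled in every column.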

How the data were processed

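Per the labels and the study's methods, RNA from left kidneys was labelled with Cy3 and hybridised to Agilent mouse arrays. The extraction kit differs between the labels and the methods. The authors deposited 6 scanner tables holding processed signal intensity, background-subtracted by Feature Extraction (version 10.7.1.1 per the file headers and 9.5.1.1 per the submitters' processing notes). They also deposited a value table of intensities whose columns have the same quartiles, and log2 of it was taken here. The normalization and centring behind that table are not given in the sources used here.

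From the intensity values, log2 of the processed signal minus the 75th percentile of the array was computed over 59305 non-control spots. Spots flagged as outliers (44 to 73 per array) were left out and spots of a probe averaged, which gave 56605 probes. The authors deposited, per the file headers, a p-value for each spot against background, computed by Feature Extraction. The 56097 probes where it was under 0.05 on 1 or more arrays were tested together in limma 3.58.1 (R 4.3.3) without covariates, over all 6 arrays. That p-value does not tell a signal above background from one below. When only signals above background counted, 49393 probes remained. As in the methods, calls were made at 0.05 without adjustment, and the Benjamini-Hochberg value over all probes is beside it. The step was tested on simulated data. A gene is represented by its brightest probe. RefSeq (GRCm38.p6) accessions named 32994 probes, and others kept the array's name.

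The members and marker lists were chosen with earlier results of these data known. Named genes are all members, up to 4 called genes of each list by size of difference, and the 6 genes most like each profile. Other list genes given with values (Upk3a, Krt5, Krt20, Trp63, Gata3, Krt13, Retn, Cd68, Wt1, Aldh1a2, Pdpn, Calb2, Cyp11b1) were chosen after their values were seen. Alternatives were background correction, normalization, filters, the authors' value table, the probe rule, moderation, the methods' t-test, slide side and replicate number as blocks, and leaving out each array. The alternatives for Rspo1, Nkain4, Slpi, Cldn4, the mucin 16 probe and the marker lists were chosen after seeing the data. The number of arrays limits the precision.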

Additional observations from a re-analysis of the deposited data

How the results depend on the processing

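The count of member genes called was 1 (Lrrn4) in the reported setting. It was 0 with quantile normalization, the authors' value table or slide side as a block, and 2 (Msln and Lrrn4) with trend and robust moderation or with all probes of a gene averaged. Scaling by the median gave 3 (Msln, Lrrn4 and Bnc1). Requiring a probe well above background, or normexp correction, gave 1 (Msln). With each array left out in turn the count ran from 1 to 7. It was 7 without Selenbp1-KO replicate 3 and 2 without WT replicate 2 or WT replicate 4. Of all 56097 probes, 3744, 2024 and 17585 were called in these 3 fits, in the same order. The median difference of the members ran from 0.11 (without Selenbp1-KO replicate 2) to 0.66 (without Selenbp1-KO replicate 3).

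The count of probes called, 4479, was 2841 with the stricter filter, 7536 with trend and robust moderation and 14616 with scaling by the median. With each array left out it ran from 2024 (without WT replicate 2) to 17585 (without WT replicate 4), and leaving out WT replicate 3 gave 2627, leaving out Selenbp1-KO replicate 2 gave 2808. The share of calls that were higher, 81.1%, was 54.8% with quantile normalization, 55.1% in the authors' value table, 95.3% with normexp, 93.6% with scaling by the median and 37.3% with slide side as a block. Gpm6a turned to −0.025 with slide side as a block, and ran from −0.014 (without Selenbp1-KO replicate 1) to 0.084 (without Selenbp1-KO replicate 2) with an array left out. Upk3b ran from −0.056 (without Selenbp1-KO replicate 2) to 0.35 (without Selenbp1-KO replicate 3). The cause was not tested.

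Only replicate numbers 2 and 3 occur in both groups, and the deviations of same-numbered arrays correlated at 0.036 and 0.12. Such deviations also hold each array's own variation, so they cannot decide whether the numbers pair the samples. With the replicate block, 3 members (Msln, Lrrn4 and Bnc1) and 18430 probes were called, 0 of them after adjustment.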
